A study of Mus musculus with 6 samples.

Results

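The genes described here are the transcriptional coactivators YAP (Yap1) and TAZ (Wwtr1), the DNA-binding factor Tead1, 3 target genes (Cyr61, Ctgf and Ankrd1) and 4 genes that act back on the pathway (Amotl2, Ajuba, Wwc1 and Lats2). They were taken by symbol from a table of read counts for 23481 genes, and all 10 were found in it and passed the filter on low counts, as did 12457 genes in all. The cells were 4T1, a mouse mammary carcinoma line (4T1_T in the name of the count table, which the labels do not explain), grown in DMEM with non-essential amino acids. Each culture had been infected with 1 short hairpin RNA: shAsns-1 or shAsns-2, both directed at asparagine synthetase (Asns), or shRenilla, the control, against the sea pansy luciferase, which is not a mouse gene. The labels name libraries A and B for every hairpin. In the table, shAsns-1 B is 0 at every gene, so the data are 1 library of shAsns-1 and 2 each of shAsns-2 and shRenilla. It is not stated whether A and B came from separate cultures or infections, so p-values measure only the spread between these libraries.

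In the Hippo pathway, the kinases MST and LATS phosphorylate YAP and TAZ, which keeps them in the cytoplasm and marks them for degradation. Unphosphorylated YAP and TAZ enter the nucleus and, bound to TEAD factors, switch on genes of growth, adhesion and matrix. Several of those genes encode inhibitors of the pathway's own output, such as LATS2 and AMOTL2, so that the pathway limits itself. YAP and TAZ are controlled largely at the protein level, which read counts do not measure.

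The libraries held 10244753 to 15955168 gene reads, and each of the 10 genes had between 282 and 9197 reads in every library. Levels are CPM, reads per 1000000 gene reads after TMM scaling for composition, and a pair of values for a hairpin is given in the order A, B. For Asns the values were 58.7 and 56.2 CPM (shRenilla), 46.5 and 44.7 CPM (shAsns-2) and 109 CPM (shAsns-1). Asns had a log2 fold change against shRenilla of -0.34 in shAsns-2 (edgeR adjusted p = 0.216) and of 0.92 in the shAsns-1 library (adjusted p = 6.27e-05). Asns was thus highest under a hairpin directed against it, which goes against the label, and the text below writes "the library labelled shAsns-1" for that sample. The same library had reads at 17672 genes, against 15052 to 15392 in the others, and its log2 fold changes against shRenilla were negatively related to transcript GC content (Spearman -0.325 across 8896 well-expressed genes, which are not independent replicates, against 0.0723 for shAsns-2). That library also had the largest share of unaligned reads, 23.2% against 17.9 to 20.1% in the others. Its 10244753 gene reads were the fewest, close to the 10472179 of shAsns-2 A. The epithelial markers Epcam, Cdh1, Krt8 and Krt18 summed to 836 CPM in the library labelled shAsns-1 and to 962 to 1062 CPM in the other libraries. They did not all move alike. In the library labelled shAsns-1, Epcam was at 33.1 CPM (53.4 and 53.6 in shRenilla) and Cdh1 at 295 CPM (431 and 389). Krt8 was at 203 CPM (223 and 217 in shRenilla), and Krt18, at 305 CPM, lay above both controls (288 and 303). Markers of fibroblasts, leukocytes and endothelium summed to at most 37.6, 6.36 and 1.26 CPM in any library. The fibroblast sum was 37.6 CPM in the library labelled shAsns-1 and 28.4 to 30.1 CPM in the others. Pdgfra made up nearly all of the first sum, and Lum and Lyz2 were at 0 throughout. The GC relation, the unaligned share and the epithelial and fibroblast sums set apart the same library as the results below. Apart from the GC correction given beside some results, their part in these was not tested. In bulk RNA, fewer cells of a type and less RNA per cell cannot be told apart.

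The 250 bases upstream of the start of a gene show whether the core letters of a TEAD site, GGAATG or the reverse complement CATTCC, stand close to the start of genes that moved together and of those that did not. The windows come from RefSeq (GRCm38.p6), which had an entry for 8 of the 10 genes. Ctgf and Tead1 had none. On either strand, the 6 letters were found in the windows of 6 genes (Cyr61, Ankrd1, Ajuba, Amotl2, Yap1 and Wwtr1) and were not found in those of Wwc1 and Lats2. Across all 32851 windows of this length, 12.6% held them. This share counts windows, whereas a gene was counted if any of its windows held the letters, and Wwtr1 and Lats2 have more than 1. The windows of Lats2, Amotl2 and Ankrd1 lie within the span of the gene in GENCODE M21, so they do not precede its outermost start. A CArG box, the site of serum response factor, was in 0 of the 10 windows of these genes and in 1.47% of all windows. The windows of Lats2 and the Wwtr1 window at chr3:57575911-57576160 are free of untranslated exons in GENCODE M21 but are not printed here. The windows printed are also free of them and run 5′ to 3′ in the direction of the gene, with the 6 letters in capitals. They are those of Cyr61 (chr3:145649986-145650235, minus strand) and Ajuba (chr14:54577662-54577911, minus strand), which hold the letters and fell in the library labelled shAsns-1, of Yap1 (chr9:8004597-8004846, minus strand), which holds them and was not called, and of Wwc1 (chr11:35980528-35980777, minus strand), which lacks them and fell.
Cyr61: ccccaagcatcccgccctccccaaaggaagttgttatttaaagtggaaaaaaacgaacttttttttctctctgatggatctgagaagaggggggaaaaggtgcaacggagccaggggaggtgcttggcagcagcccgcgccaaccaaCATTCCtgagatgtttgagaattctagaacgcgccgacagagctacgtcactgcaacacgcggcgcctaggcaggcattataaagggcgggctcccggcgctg
Ajuba: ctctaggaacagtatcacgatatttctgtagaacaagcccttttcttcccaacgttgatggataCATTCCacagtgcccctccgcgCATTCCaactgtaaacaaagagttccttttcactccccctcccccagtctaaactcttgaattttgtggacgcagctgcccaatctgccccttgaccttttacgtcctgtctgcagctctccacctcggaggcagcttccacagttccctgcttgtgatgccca
Yap1: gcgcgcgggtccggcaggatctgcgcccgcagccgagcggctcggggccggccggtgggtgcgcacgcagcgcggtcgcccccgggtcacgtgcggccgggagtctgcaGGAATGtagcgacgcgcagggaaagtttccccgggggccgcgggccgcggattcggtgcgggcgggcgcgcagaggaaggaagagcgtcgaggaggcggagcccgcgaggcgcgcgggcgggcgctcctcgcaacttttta
Wwc1: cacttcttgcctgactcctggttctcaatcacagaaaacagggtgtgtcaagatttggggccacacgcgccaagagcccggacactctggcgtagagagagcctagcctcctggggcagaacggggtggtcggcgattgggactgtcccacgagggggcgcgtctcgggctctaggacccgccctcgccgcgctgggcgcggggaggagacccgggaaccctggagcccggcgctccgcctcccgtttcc
In Cyr61 the letters lie 103 to 98 bases before the start and in Yap1 141 to 136 bases before it. Ajuba has 2 copies, at 186 to 181 and 164 to 159 bases. In the windows not printed, Ankrd1 has 2 copies, at 210 to 205 and 123 to 118 bases, and Amotl2 has 1, at 65 to 60 bases. Of the 4 genes with a window that fell in the library labelled shAsns-1, Cyr61 and Ajuba held the letters and Wwc1 and Lats2 did not, while Ankrd1, Amotl2 and Yap1 held them and were not called. Wwtr1, which was called higher, held them as well, at 136 to 131 bases before 1 annotated start and 170 to 165 bases before another. A match is a description of the letters, not a bound site.

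Per length of transcript, Cyr61 was the most abundant of the 10 genes in control cells. In shRenilla it stood at 112 ± 5.55 RPKM (CPM per 1000 exon bases; SD, n = 2, as for the other RPKM values). Wwtr1 followed at 63.2 ± 3.67 RPKM and Ankrd1 at 55.6 ± 5.54 RPKM, whose ranges of mean ± SD overlapped. Tead1 stood at 43.6 ± 1.55 RPKM. Ctgf (18.6 ± 0.360), Ajuba (18.6 ± 0.505) and Yap1 (18.2 ± 1.20 RPKM) overlapped in the same way, as did Yap1 and Lats2 at 15.5 ± 1.62 RPKM. Amotl2 (9.80 ± 0.285 RPKM) and Wwc1 (9.79 ± 0.609 RPKM) were lowest and overlapped. The ratio of Wwtr1 to Yap1 on this scale was 3.48 and 3.45 for shRenilla, 3.72 and 3.40 for shAsns-2, and 4.86 for the library labelled shAsns-1. TAZ messenger RNA was therefore the more abundant of the pair in every library, with the widest margin in that one. Of the other TEAD factors, whose CPM are given here without a correction for length, Tead4 ranged from 22.4 to 31.4 CPM, Tead2 from 12.2 to 15.1 CPM and Tead3 from 2.32 to 3.85 CPM, while Tead1 ranged from 521 to 625 CPM. The lowest Tead4 value was that of the library labelled shAsns-1, and the other libraries stood at 28.7 to 31.4 CPM. Its log2 fold change there was -0.38 against shRenilla, and it was not called.

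**Figure D1:**
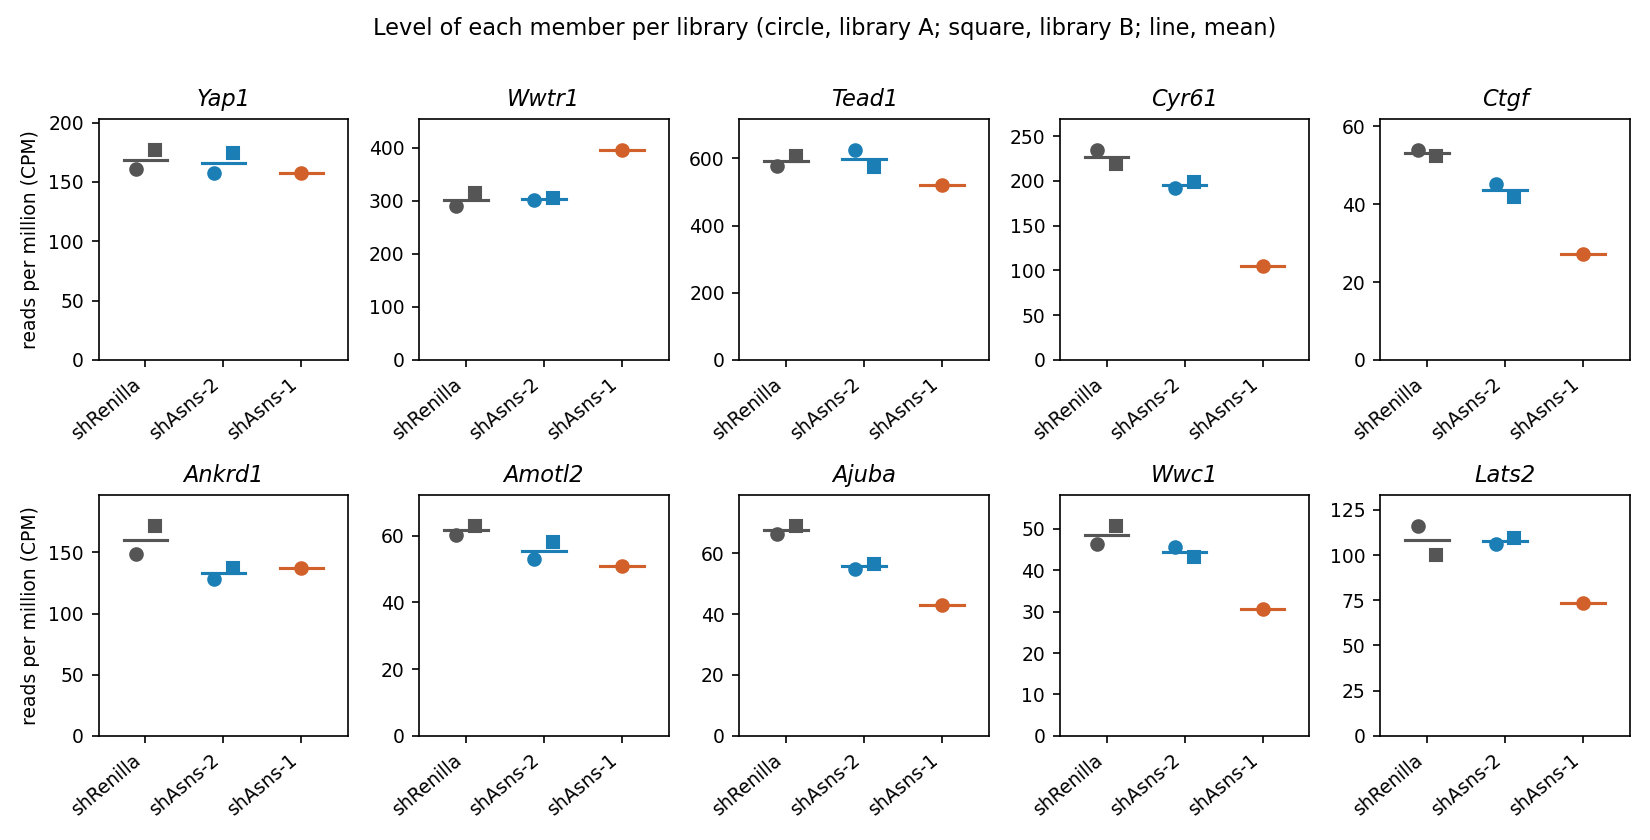
CPM (y axis, from 0) of each of the 10 genes in the 5 libraries with reads, by hairpin (x axis); circles are libraries A, squares libraries B and lines the mean of a hairpin's libraries. Cyr61 falls from 234 and 218 CPM in shRenilla to 105 CPM in the library labelled shAsns-1, while Wwtr1 goes from 290 and 314 to 395 CPM.

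Of the coactivators and their partner, Yap1 and Tead1 did not pass the test in any comparison. Yap1 (ENSMUSG00000053110, chr9:7931999-8004596, minus strand of GRCm38) measured 161 and 177 CPM (shRenilla), 157 and 174 CPM (shAsns-2) and 158 CPM (the library labelled shAsns-1). The shAsns-2 and shRenilla values overlapped, and the library labelled shAsns-1 lay just under both controls. Yap1 had a log2 fold change of -0.03 in shAsns-2 (95% interval -0.21 to 0.15, adjusted p = 0.946) and -0.10 in the library labelled shAsns-1 (-0.32 to 0.12, adjusted p = 0.659). Tead1 (ENSMUSG00000055320, chr7:112679318-112906807, plus strand) measured 576 and 606 CPM (shRenilla), 625 and 574 CPM (shAsns-2) and 521 CPM (the library labelled shAsns-1). Tead1 had a log2 fold change of 0.02 in shAsns-2 (-0.15 to 0.19, adjusted p = 0.953) and -0.18 in the library labelled shAsns-1 (-0.39 to 0.03, adjusted p = 0.327).

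Wwtr1, the gene of TAZ, was higher in the library labelled shAsns-1. Wwtr1 (ENSMUSG00000027803, chr3:57455649-57575910, minus strand) measured 290 and 314 CPM (shRenilla), 301 and 305 CPM (shAsns-2) and 395 CPM (the library labelled shAsns-1). The 4 other libraries overlapped, and that library lay above each of them. Wwtr1 rose there by a log2 fold change of 0.39 (SE 0.0959; 1.31-fold, 95% interval 1.14 to 1.51; edgeR adjusted p = 0.0297), and in shAsns-2 its log2 fold change was 0.01 (1.00-fold, 0.895 to 1.13, adjusted p = 0.983). With the GC trend removed, the rise was 0.32 with an adjusted p of 0.0923, and among the 10 genes Wwtr1 had the lowest GC content, 43.9%. The call was also lost without shRenilla A (0.33, adjusted p = 0.0668), without shAsns-2 A (adjusted p = 0.112) and without shAsns-2 B (adjusted p = 0.110).

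The targets Cyr61 and Ctgf both fell in the library labelled shAsns-1. Both encode secreted matricellular proteins of the CCN family, named Ccn1 and Ccn2 in current annotation, and both are standard readouts of YAP and TAZ activity. Cyr61 (ENSMUSG00000028195, chr3:145646976-145649981, minus strand) measured 234 and 218 CPM (shRenilla), 192 and 199 CPM (shAsns-2) and 105 CPM (the library labelled shAsns-1). The 3 hairpins did not overlap, with shAsns-2 between the others. The log2 fold change in the library labelled shAsns-1 was -1.10 (SE 0.105; 0.465-fold, 95% interval 0.399 to 0.543; adjusted p = 1.265e-05). In shAsns-2 it was -0.21 (SE 0.0796; 0.863-fold, 0.768 to 0.970; unadjusted p = 0.0166 and adjusted p = 0.413 in edgeR).

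Ctgf (ENSMUSG00000019997, chr10:24595442-24598683, plus strand) showed the same order of hairpins. It measured 53.9 and 52.4 CPM (shRenilla), 45.2 and 42.0 CPM (shAsns-2) and 27.1 CPM (the library labelled shAsns-1). Both shAsns-2 libraries lay below both controls, and the library labelled shAsns-1 lay below both of those. Ctgf had a log2 fold change of -0.97 in the library labelled shAsns-1 (SE 0.124; 0.511-fold, 0.426 to 0.612; adjusted p = 0.000241) and -0.29 in shAsns-2 (SE 0.0909; 0.818-fold, 0.716 to 0.935; unadjusted p = 0.00549, adjusted p = 0.318 in edgeR). The ratio of Cyr61 to Ctgf in RPKM was 6.16 and 5.90 for shRenilla, 6.01 and 6.72 for shAsns-2 and 5.50 for the library labelled shAsns-1.

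Ankrd1, the third target, did not pass the test in any comparison. The gene encodes a nuclear ankyrin repeat protein that heart muscle induces under load (ENSMUSG00000024803, chr19:36111961-36120099, minus strand). Ankrd1 measured 149 and 172 CPM (shRenilla), 128 and 138 CPM (shAsns-2) and 137 CPM (the library labelled shAsns-1). All 3 libraries with an Asns hairpin lay below both controls, and the library labelled shAsns-1 fell between the shAsns-2 libraries. Ankrd1 had a log2 fold change of -0.27 in shAsns-2 (-0.45 to -0.08; unadjusted p = 0.00735, adjusted p = 0.331 in edgeR) and -0.23 in the library labelled shAsns-1 (-0.46 to 0.01, adjusted p = 0.267). Neither passed the test, and the difference between the hairpins was -0.04 (-0.27 to 0.19, adjusted p = 0.883). The controls differed from each other beyond counting error at Ankrd1 (ratio of shRenilla A to B 0.868, 95% interval 0.820 to 0.919), and also at Yap1 (0.911), Wwtr1 (0.921), Tead1 (0.951), Cyr61 (1.07) and Lats2 (1.16, 1.08 to 1.24).

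Of the 4 feedback genes, Ajuba, Wwc1 and Lats2 fell in the library labelled shAsns-1 and Amotl2 did not pass the test. Ajuba encodes a LIM-domain protein that binds and restrains LATS kinases (ENSMUSG00000022178, chr14:54567472-54577558, minus strand). Ajuba measured 66.3 and 68.9 CPM (shRenilla), 54.9 and 56.4 CPM (shAsns-2) and 43.1 CPM (the library labelled shAsns-1). The 3 hairpins did not overlap, in the same order as for Cyr61 and Ctgf. The share of all genes in which the 3 hairpins do not overlap was not computed, and shAsns-1 has only 1 library. Its log2 fold change was -0.65 in the library labelled shAsns-1 (SE 0.112; 0.637-fold, 0.541 to 0.751; adjusted p = 0.00326) and -0.28 in shAsns-2 (SE 0.0858; unadjusted p = 0.00462, adjusted p = 0.303 in edgeR).

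Wwc1 encodes KIBRA, a scaffold that promotes LATS activation (ENSMUSG00000018849, chr11:35838400-35980527, minus strand). It measured 46.4 and 50.7 CPM (shRenilla), 45.6 and 43.2 CPM (shAsns-2) and 30.7 CPM (the library labelled shAsns-1). That library stood apart from the other 4, while shAsns-2 lay just below the controls. Against shRenilla the log2 fold change was -0.66 in the library labelled shAsns-1 (SE 0.124; 0.633-fold, 0.528 to 0.758; adjusted p = 0.00601) and -0.13 in shAsns-2 (-0.33 to 0.07, adjusted p = 0.665).

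Lats2 encodes one of the kinases that phosphorylate YAP and TAZ (ENSMUSG00000021959, chr14:57689662-57758388, minus strand). It measured 116 and 100 CPM (shRenilla), 106 and 109 CPM (shAsns-2) and 73.3 CPM (the library labelled shAsns-1). The shAsns-2 values lay between the controls, and the library labelled shAsns-1 lay below each of the other 4. The log2 fold change was -0.56 there (SE 0.114; 0.678-fold, 0.574 to 0.802; adjusted p = 0.00988) and -0.00 in shAsns-2 (-0.19 to 0.18, adjusted p = 0.989). Lats1, the paralog, had a log2 fold change of -0.03 in the library labelled shAsns-1 (SE 0.0954, adjusted p = 0.899) and stood at 440 to 472 CPM in every library.

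Amotl2 encodes an angiomotin-like protein of cell junctions that binds YAP (ENSMUSG00000032531, chr9:102716672-102733418, plus strand). It measured 60.4 and 62.9 CPM (shRenilla), 52.9 and 58.3 CPM (shAsns-2) and 50.8 CPM (the library labelled shAsns-1). The libraries with an Asns hairpin lay below both controls, by less than for the other feedback genes in the library labelled shAsns-1. Amotl2 had a log2 fold change of -0.28 in that library (-0.52 to -0.04, adjusted p = 0.180) and -0.15 in shAsns-2 (-0.33 to 0.04, adjusted p = 0.623).

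**Figure D2:**
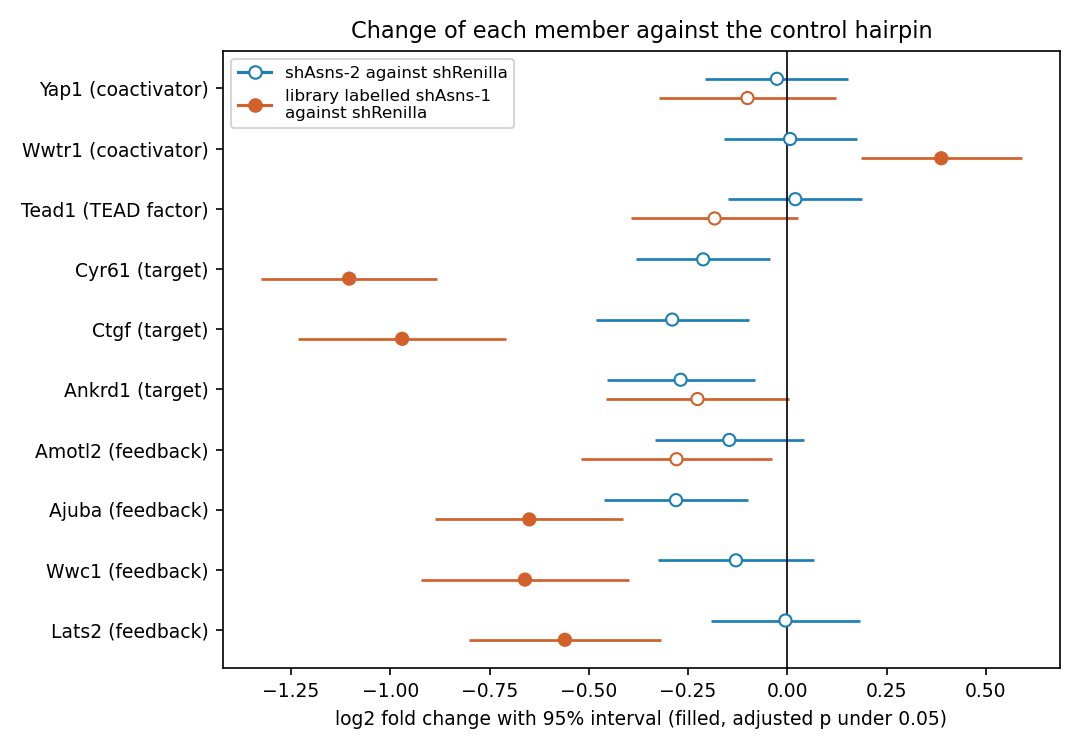
Log2 fold change against shRenilla (x axis) with its 95% interval for each of the 10 genes (y axis) in shAsns-2 (blue) and in the library labelled shAsns-1 (orange); filled points have an adjusted p under 0.05. Filled points are Wwtr1 at 0.39 and Cyr61, Ctgf, Ajuba, Wwc1 and Lats2 between -1.10 and -0.56, all in the library labelled shAsns-1.

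With the GC trend of each library removed, Cyr61 (-1.06), Ctgf (-0.95), Wwc1 (-0.60), Ajuba (-0.59) and Lats2 (-0.52, adjusted p = 0.0227) were still called lower in the library labelled shAsns-1. The transcript GC content of these genes was 52.7%, 49.2%, 57.1%, 58.3% and 52.2%, against a median of 49.5% over all genes tested. In the annotation, exons of Ctgf and Yap1 overlap those of a predicted gene on the opposite strand and exons of Lats2 those of one on the same strand. These predicted genes are not among the genes counted, so reads from them cannot be told apart here.

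Counted over the 10 genes, the library labelled shAsns-1 had 5 lower and 1 higher (edgeR quasi-likelihood test, adjusted p under 0.05), and 4 were not called. Over all genes tested, 4.37% were called in that comparison, 2.06% lower and 2.31% higher. At an unadjusted p under 0.05 it had 6 of the 10 lower and 1 higher, against 9.54% and 10% of all genes. The median log2 fold change of the 10 was -0.42, against -0.01 over all genes. In shAsns-2, 0 of the 10 were called by edgeR, DESeq2 or limma-voom. Over all genes edgeR called 0.0642% there, all of them higher and 0 lower. The median of the 10 was -0.14 against -0.00 over all genes. At an unadjusted p under 0.05 edgeR gave 4 of the 10 lower in shAsns-2 (Cyr61, Ctgf, Ankrd1 and Ajuba) and 0 higher, where 4.05% of all genes were lower and 5.59% higher. In CPM, 6 of the 10 lay below both controls in both shAsns-2 libraries (the 3 targets, Amotl2, Ajuba and Wwc1) and 0 lay above, against 20.7% and 20.6% of all genes. In the library labelled shAsns-1, 9 lay below both controls and Wwtr1 above them, against 38.5% below and 37.4% above. The comparisons share the shRenilla libraries, so the values for shAsns-2 and for the library labelled shAsns-1 are not independent of each other. The 10 genes were also chosen with earlier results of these data known.

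The mean level of each role per library is given as a description, with no test of the difference between roles. The mean log2 CPM of Cyr61, Ctgf and Ankrd1, relative to shRenilla, was -0.26 and -0.25 for shAsns-2 and -0.77 for the library labelled shAsns-1. For the 4 feedback genes it was -0.16, -0.12 and -0.54 in the same order. That mean joins genes of unlike action, since Ajuba restrains LATS kinases and Wwc1 promotes their activation. In shAsns-2, Ajuba stood at -0.30 and -0.26 and Lats2 at -0.02 and 0.02. For Yap1 and Wwtr1 together the mean was -0.05, 0.03 and 0.14 in the same order. In the library labelled shAsns-1 that mean joined Yap1 at -0.10 with Wwtr1 at 0.39, so the coactivators did not rise together. The targets less the coactivators came to -0.21 and -0.28 for shAsns-2 and -0.91 for the library labelled shAsns-1, where shRenilla stood at 0.05 and -0.05 around their own mean. None of the 3 targets was called in shAsns-2. In the library labelled shAsns-1 the mean was carried by Cyr61 (-1.10) and Ctgf (-0.97), with Ankrd1, which was not called, at -0.22.

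**Figure D3:**
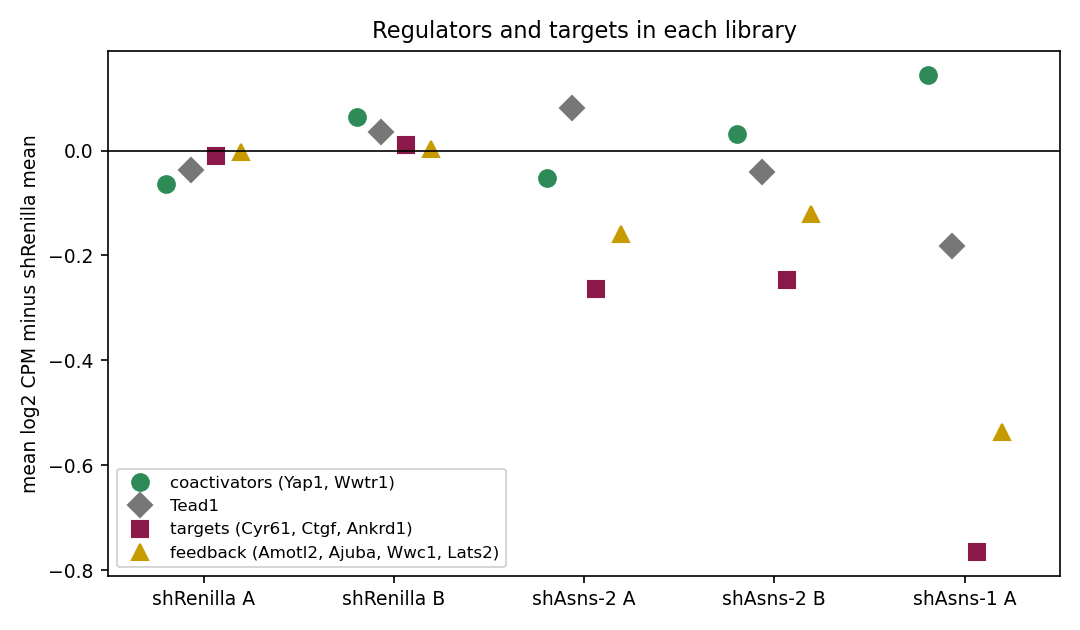
Mean log2 CPM of each role minus its shRenilla mean (y axis) in the 5 libraries with reads (x axis): coactivators (circles), Tead1 (diamonds), targets (squares) and feedback genes (triangles). Targets reach -0.26 and -0.25 in shAsns-2 and -0.77 in the library labelled shAsns-1, where the coactivators stand at 0.14. That value joins Yap1 at -0.10 with Wwtr1 at 0.39.

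The difference between the hairpins was tested directly, with 1 library on the shAsns-1 side, so that hairpin and library cannot be told apart. Of the 10 genes, 4 were higher in shAsns-2 than in the library labelled shAsns-1 and 1 was lower, where 2.14% of all genes were called, 1.33% higher and 0.811% lower. At an unadjusted p under 0.05, 5 of the 10 were higher and 1 lower, against 8.87% and 7.89% of all genes. In CPM, both shAsns-2 libraries lay above that library for 7 of the 10 and below it for 1, against 39.8% and 39.2% of all genes. The log2 difference was 0.89 for Cyr61 (SE 0.105, adjusted p = 0.000225), 0.68 for Ctgf (SE 0.126, adjusted p = 0.00897), 0.56 for Lats2 (SE 0.115, adjusted p = 0.0170), 0.53 for Wwc1 (SE 0.126, adjusted p = 0.0373) and -0.38 for Wwtr1 (SE 0.0962, adjusted p = 0.0493). Ajuba, at 0.37 (0.13 to 0.61, adjusted p = 0.103), did not pass. Without shAsns-2 A, Cyr61 was the only one of the 5 to pass, and without shAsns-2 B, Cyr61 and Ctgf passed. Wwtr1 and Wwc1 also did not pass by limma-voom (adjusted p = 0.0532 and 0.0515) or with the GC trend removed (0.151 and 0.117), nor did Wwc1 by DESeq2 (0.0981).

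Among other regulators of the pathway, Strn3 was the 1 gene called against shRenilla in the main edgeR fit. That fit had the filter on low counts, all 5 libraries, hairpin alone in the model and no GC correction. Of the 35 on a list of Hippo regulators that are not among the 10, 31 were tested. Fat4, Dchs1, Wtip and Vgll1 were too low. In the library labelled shAsns-1, Strn3, a subunit of the STRIPAK phosphatase complex that opposes MST kinases, rose (log2 fold change 0.40, SE 0.108, adjusted p = 0.0460), 0 fell and 30 were not called. Strn3 measured 367 and 306 CPM (shRenilla), 385 and 396 CPM (shAsns-2) and 443 CPM (the library labelled shAsns-1). The 3 hairpins did not overlap for Strn3, but its call was lost with the GC trend removed (0.21, adjusted p = 0.332), in DESeq2 (adjusted p = 0.0542), without either shAsns-2 library (adjusted p = 0.129 and 0.126) and without shRenilla B (0.27, adjusted p = 0.0747). The median of the 31 was -0.06, with 8 lower and 3 higher at an unadjusted p under 0.05, against 9.54% lower and 10% higher over all genes. With genes of low counts kept, Fat1 (adjusted p = 4.663e-05) and Wwc2 (adjusted p = 0.0290) were called lower, and without shRenilla B Fat1 was (adjusted p = 0.0216).

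Among the core kinases and their partners in the library labelled shAsns-1, Stk3, the gene of MST2, had a log2 fold change of 0.31 (adjusted p = 0.0805), Stk4, the gene of MST1, -0.10 (adjusted p = 0.640), the scaffold gene Sav1 0.21 (adjusted p = 0.297) and Nf2, the gene of merlin, which activates LATS at the membrane, -0.33 (adjusted p = 0.117). The kinase cofactors Mob1a (0.11) and Mob1b (-0.03) were not called either. Fat1, an atypical cadherin, had -0.51 (adjusted p = 0.0700), but it varied within hairpins, with 480 and 374 CPM (shRenilla), 514 and 384 CPM (shAsns-2) and 300 CPM (the library labelled shAsns-1). Under the hairpin shAsns-2, 0 of the 31 were called by edgeR, DESeq2 or limma-voom. In edgeR the median was 0.03, with Strn3 (0.21) higher and 0 lower at an unadjusted p under 0.05. Frmd6, a membrane protein upstream of the kinases, had -0.17 (adjusted p = 0.516) and Stk3 0.15 (adjusted p = 0.570).

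Beyond Cyr61, Ctgf and Lats2, YAP and TAZ targets of a wider signature did not pass the test against shRenilla. Of a signature of 22 targets known from human cancer cells, 5 are among the 10 genes. Of the other 17, 13 were tested, since Igfbp3, Foxf2, Ccdc80 and Rbms3 were too low. In the library labelled shAsns-1, edgeR, DESeq2 and limma-voom called 0 of these 13. The median log2 fold change in edgeR was -0.02, against -0.01 over all genes, with 3 lower and 0 higher at an unadjusted p under 0.05, against 9.54% and 10% of all genes. Without shRenilla B, Myof (adjusted p = 0.0224) and Dock5 (adjusted p = 0.0253) were called lower, and with genes of low counts kept Myof was (adjusted p = 0.0234). Axl, the gene of a receptor tyrosine kinase and a well-known YAP target, measured 1020 and 1011 CPM (shRenilla), 1077 and 1071 CPM (shAsns-2) and 980 CPM (the library labelled shAsns-1) (log2 fold change -0.05, SE 0.0940, adjusted p = 0.820). Asap1 (0.04), a regulator of Arf GTPases, Nt5e (0.13), the ectoenzyme CD73, and Crim1 (0.01) were likewise not called there. Myof, the membrane protein myoferlin, had -0.32 (SE 0.103, adjusted p = 0.0860), and Ptpn14, a phosphatase that binds YAP, had -0.32 (SE 0.106, adjusted p = 0.0967). Ptpn14 was called only between the hairpins, higher in shAsns-2 (0.46, SE 0.107, adjusted p = 0.0357). That call of Ptpn14 was lost with the GC trend removed (adjusted p = 0.0783), without shAsns-2 A (0.369) and without shAsns-2 B (0.108).

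In shAsns-2, the same 13 targets had a median of 0.08 and 0 were called by edgeR, DESeq2 or limma-voom. At an unadjusted p under 0.05 edgeR gave 2 higher and 0 lower, against 5.59% and 4.05% of all genes. These were Crim1, a transmembrane protein with BMP-binding repeats (0.37, SE 0.0999, adjusted p = 0.222), and Arhgef17 (0.33, SE 0.0931, adjusted p = 0.242). Both thus lay on the opposite side of shRenilla from Cyr61, Ctgf and Ankrd1. Crim1 measured 154 and 121 CPM (shRenilla), 171 and 184 CPM (shAsns-2) and 138 CPM (the library labelled shAsns-1), and the shAsns-2 values lay above the rest. Crim1 was called in shAsns-2 without shRenilla A (0.55, adjusted p = 0.0393) and when genes with low counts were kept (0.37, adjusted p = 0.0117).

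**Figure D4:**
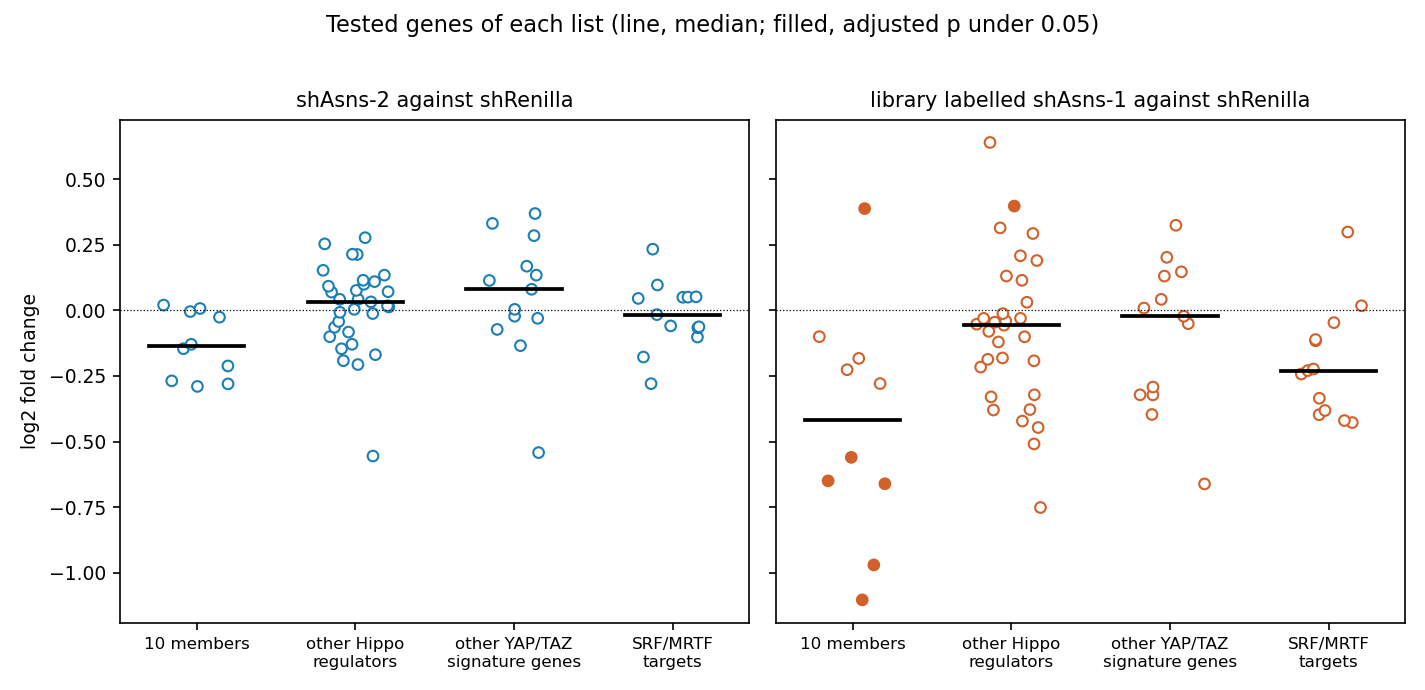
Log2 fold change against shRenilla (y axis) of each tested gene in 4 groups (x axis), for shAsns-2 (left) and the library labelled shAsns-1 (right); lines are medians and filled points have an adjusted p under 0.05. In the library labelled shAsns-1 the 10 genes have a median of -0.42, the other signature genes -0.02, the other regulators -0.06 and the SRF/MRTF targets -0.23.

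Targets of serum response factor (SRF) and its coactivators of the MRTF family, genes of the actin cytoskeleton, respond to inputs that also act on YAP and were listed for comparison. Of 17 such genes, 13 were tested, since Cnn1, Myl9, Fhl1 and Tgfb1i1 were too low. In the library labelled shAsns-1, edgeR called 0 of them, with a median log2 fold change of -0.23, 5 lower and 0 higher at an unadjusted p under 0.05, where all genes had a median of -0.01, 9.54% lower and 10% higher. Flna, the actin cross-linker filamin A, had -0.40 (SE 0.110, edgeR adjusted p = 0.0501), and it was the 1 gene of the list that DESeq2 called (adjusted p = 0.0497). Limma-voom called 0. With genes of low counts kept, Flna (adjusted p = 0.00184), Cnn2 (0.0135) and Actg1 (0.0142) were called lower. Without shRenilla B, Flna (0.0126) and Cnn2 (0.0201) were, and without shRenilla A Actg1 was (0.0252). Cnn2, a calponin, had -0.38 (adjusted p = 0.0598) and Actg1, cytoplasmic actin gamma, -0.34 (adjusted p = 0.103). Vcl, the adhesion protein vinculin, had -0.23 (adjusted p = 0.201). Between the hairpins Flna was higher in shAsns-2 (0.45, SE 0.110, adjusted p = 0.0443), while Cnn2 (0.32), Actb (0.28) and Srf itself (0.29, adjusted p = 0.218) were not called. The call of Flna was lost with the GC trend removed (adjusted p = 0.113), without shAsns-2 A (0.448) and without shAsns-2 B (0.132). In shAsns-2 against shRenilla the median of the 13 was -0.02 and 0 were called by the 3 tools. At an unadjusted p under 0.05 edgeR gave Actg1 lower (-0.28, adjusted p = 0.331) and Actb, cytoplasmic actin beta, higher (0.23, adjusted p = 0.363). The actin genes are close paralogs, so the split of reads between them is uncertain. Vcl (-0.06) and Filip1l (-0.07) had the next smallest adjusted p-values there.

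Among 11456 other tested genes, the 5 whose pattern over the 5 libraries lay nearest to that of Cyr61 were Angptl4, Nr1h3, Amigo3, Chst3 and Akap12, at Euclidean distances of 0.130 to 0.167 in log2 CPM relative to shRenilla. The 5 nearest to Ctgf were Lingo3, Jag1, Txnrd3, Nr1h3 and Pxmp2, at 0.124 to 0.157. Cyr61 and Ctgf lay 0.211 apart, so that neither was among the 5 nearest to the other. Angptl4 encodes a secreted inhibitor of lipoprotein lipase, Akap12 a scaffold of protein kinase A and Jag1 a Notch ligand. Nr1h3, the gene of a liver X receptor, was on both lists, at -1.03 in the library labelled shAsns-1 with -0.18 and -0.26 for shAsns-2.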

How the data were processed

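Messenger RNA of 4T1 cells (4T1_T in the name of the table) with 1 of 3 hairpins was counted per gene. The deposited table holds integer read counts made by the authors. Per the labels' protocols, Trizol was used for RNA extraction and the Nugen Ovation RNA-Seq V2 kit for libraries. Per the submitters' processing notes, Bowtie2, HTSeq and mm10 were used. Neither versions nor annotation nor strand use was given in the sources used here. HTSeq's tallies (reads in no feature 36.1 to 38.3% of all reads, unaligned 17.9 to 23.2%, ambiguous 0.584 to 0.626%) stayed out of library sizes and tests.

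The empty shAsns-1 B column was left out, so 5 of the 6 libraries planned entered the fit and left 2 residual degrees of freedom; the other shAsns-1 library, alone in its group, is taken to vary as those of shAsns-2 and shRenilla do. Counts were fitted with edgeR 4.0.16 (R 4.3.3): filterByExpr, TMM factors and 1 quasi-likelihood model over hairpins, with Benjamini-Hochberg adjustment over 12457 genes and calls at an adjusted p under 0.05. The fit was checked on simulated counts only for shAsns-2 against shRenilla, with the same spread for every gene and no GC trend. The comparisons with the single shAsns-1 library were not checked in this way. Intervals are 95%, and those on ratios of 2 libraries cover counting error only. The floor of 3 reads was 0.188 to 0.291 CPM. RPKM uses the union of exons in GENCODE M21 (GRCm38). Of 23481 symbols, 21871 matched it directly and 1198 through RefSeq synonyms. Alternatives were DESeq2 1.42.0, its size factors, limma-voom (limma 3.58.1), no filter, the letter as a block, removal of a per-library GC trend and leaving out each library.

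Genes were named by a rule: the 10 genes and Asns, list genes called in a comparison, the 4 smallest adjusted p-values of a list and comparison, and the 5 nearest patterns (predicted genes left out; prior count 2). Further list genes (Tead2, Tead3, Tead4, Lats1, Stk4, Sav1, Nf2, Mob1a, Mob1b, Fat1, Wwc2, Amotl1, Dock5, Axl, Asap1 and Nt5e) were named after their values were seen. The 10 genes and the lists were chosen with earlier results of these data known.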

Additional observations from a re-analysis of the deposited data

Results flagged for a closer look

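The change against shRenilla differed between the hairpins for 5 of the 10 genes, by the direct test of one hairpin against the other. Over all genes tested, 2.14% were called in this comparison, 1.33% higher and 0.811% lower in shAsns-2. The 10 genes were chosen with earlier results of these data known. The log2 differences were 0.89 for Cyr61, 0.68 for Ctgf, 0.56 for Lats2 and 0.53 for Wwc1, all lower in the library labelled shAsns-1, and -0.38 for Wwtr1, which was higher there. Hairpin and library cannot be told apart in this comparison, and Asns went against the label of that library. Of 10 other settings, Cyr61 passed in 10, Ctgf in 9, Lats2 in 8, Wwtr1 in 6 and Wwc1 in 5.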

How the results depend on the processing

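Of 310 values of the 10 genes recomputed under 11 other settings, 284 kept their direction and their side of the threshold, 16 lost the call, 0 gained one and 10 turned direction. Against shRenilla, Cyr61, Ctgf, Ajuba, Wwc1 and Lats2 kept their calls in the library labelled shAsns-1 in all 10 settings that keep that library, with log2 fold changes of -1.15 to -1.05 for Cyr61 and -0.66 to -0.45 for Lats2. None of the 10 genes was called in shAsns-2 in any setting.

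The 10 that turned were uncalled and turned with 1 library left out. Over the libraries left out, the shAsns-2 change ranged from -0.104 to 0.0451 for Yap1, -0.05002 to 0.0676 for Wwtr1, -0.0418 to 0.0799 for Tead1 and -0.106 to 0.108 for Lats2, and the difference between the hairpins from -0.0046 to 0.145 for Yap1 and -0.0961 to 0.00613 for Ankrd1.

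The number of genes called moved more, and the cause was not tested. In the order shAsns-2, library labelled shAsns-1 and between hairpins it was 8, 544 and 267, became 114 (87 higher), 919 (410 higher) and 608 (421 higher) with no filter and 2, 340 and 144 with the GC trend removed, and was 257 and 157 by DESeq2 for the last 2. Leaving out 1 library gave 0 to 47, 290 to 825 and 58 to 642. With the replicate letter as a block it was 178 (134 higher), 924 (447 higher) and 875 (527 higher); the letters are not stated to pair libraries, and A minus B correlated at 0.03 between shAsns-2 and shRenilla. With that block, Crim1 was called in shAsns-2, and Fat1, Wwc2, Myof, Dock5, Flna and Cnn2 in the library labelled shAsns-1. Between the hairpins, some list genes not called in the main fit were called in another setting. Fat1, Crim1, Amotl1, Myof, Tead4, Dock5 and Actb were higher in shAsns-2 and Sav1 was lower. Genes called among the 10 between the hairpins fell from 5 to 3 by limma-voom or with the GC trend removed (Wwtr1 and Wwc1 lost), and ranged from 1 to 5 with 1 library left out. Of 155 list medians, 29 moved by more than the spread between libraries.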
